A study of Mus musculus with 6 samples.

Results

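The 38 genes described here belong to the cellular answer to amino acid shortage and to unfolded protein in the endoplasmic reticulum (ER). They were chosen by gene name, as all array probes that carry one of 38 listed names, out of 12449 names given to tested probes. The probes were read on 6 single-colour Agilent arrays of RNA from a mouse pre-B cell line derived from the bone marrow of SLP-65-/- LAT-/- mice. All groups share the deletion of both adaptor proteins, the established line as their source, culture in an excess of IL-7 and puromycin selection after retroviral transduction. The control group (2 arrays) carried the empty vector, the miR-26a group (2 arrays) a construct for hsa-miR-26a-2, and the sponge group (2 arrays) a transcript with binding sites for miR-26. Per the paper, the 2 arrays of a group are biological replicates from 2 independent experiments.

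When amino acids run short or unfolded protein builds up in the ER, the kinases GCN2 and PERK phosphorylate the initiation factor eIF2, which lowers general protein synthesis and raises translation of the transcription factor ATF4. ATF4 and its partner CHOP then induce genes for amino acid synthesis, transport and tRNA charging as well as feedback inhibitors. The ER sensors IRE1 and ATF6 act in separate branches that induce chaperones and degradation factors, and B-lineage cells need IRE1 and XBP1 when they begin to secrete antibody.

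The groups differ in their constructs, which were made to act on the miR-26 family, and its mature mouse sequences are shown for that reason. Capitals mark the seed, bases 2 to 8, which both members share. The sequences are from RefSeq (GRCm38.p6), and that of miR-26a is the same for both mouse loci.
mmu-miR-26a-5p: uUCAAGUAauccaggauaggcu
mmu-miR-26b-5p: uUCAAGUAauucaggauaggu
The word TACTTGA, which pairs with this seed, and ACTTGAA, which pairs with all but the last base of the seed and goes on with an A, both occurred in 0 of the 50 probes of the 38 genes, which says only that these letters are not in the probes. The arrays did not measure miRNAs.

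Between 28823 and 29800 of 59305 spots per array were well above background, no spot was saturated, and the number of arrays is a limit on precision throughout. The labelled cell type was checked against markers. All 10 pre-B cell markers, among them the surrogate light chain genes Vpreb1 and Igll1, were well above background on 6 arrays. The plasma cell markers Igj and Tnfrsf17 and the T cell marker Cd3g were not well above background on any array. Lyz2 and Mpo of the myeloid list were so on 1 array each, and the T cell marker Cd3d on 2 arrays. Other markers of these lists gave signal on 6 arrays, namely Prdm1, Sdc1, Cd3e, Cd4, Lck, Csf1r, Elane and Itgam, and none of them passed the test in any comparison. None of the 3 erythroid markers was above background. Probes for Blnk, which encodes SLP-65, and for Lat were well above background on 6 arrays; whether they lie in the deleted parts was not tested, so they do not check the genotype. Blnk was the 1 pre-B cell marker that passed the test, and fell by 0.49 on the log2 scale with miR-26a (adjusted p = 0.0275).

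All 38 genes had a probe that passed the filter on dim signals and was well above background on 6 arrays. They are covered by 50 probes, of which 46 passed, and each gene is given by its brightest passing probe. Values are quantile-normalized log2 signals, in the order control 1, control 2, miR-26a 1, miR-26a 2, sponge 1 and sponge 2, where the number is the experiment. Changes are differences of log2 signal from limma, fitted with the experiment as a term, and Benjamini-Hochberg adjustment of p covered all 20168 probes tested. A gene is said to rise or fall where the adjusted p is under 0.05. The p-values rest on the spread of these 6 samples after group and experiment, moderated by limma over all probes tested. They also rest on pairing the arrays by replicate number.

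The 38 genes were chosen with earlier results of these data known, so their shares are descriptions and not a test of the set. With miR-26a, 9 of the 38 genes (23.7%) were lower than in control cells, against 5.14% of all probes. These were Trib3, Chac1, Atf3, Ddit3, Atf5, Asns, Mthfd2, Cars and Eif2ak3. By limma none was higher, against 4.5% of all probes, and at an unadjusted p under 0.05 the counts were 12 lower and 3 higher, beside 2616 lower and 2883 higher of all 20168 probes. The median log2 change of the 38 genes was -0.09, beside 0.01 over all probes. By role, the falls were in 5 of 8 stress factors and effectors, 2 of 6 asparagine, serine and one-carbon enzymes, 1 of 10 tRNA synthetases, 1 of 5 sensors and 0 of 9 ER chaperones and degradation factors. Without Atf3, which passed the filter only through the groups where it is high, the counts were 8 of 37 genes and 4 of 7 stress factors and effectors. The count rests on every array of the comparison: without control 1 it was 0, without control 2 it was 1 (Chac1), and without miR-26a 1 or miR-26a 2 it was 5 (Atf3, Atf5, Chac1, Ddit3 and Trib3 each time). The lower calls over all 20168 probes also dropped, from 1036 to 75 without control 1, 98 without control 2, 916 without miR-26a 1, 763 without miR-26a 2 and 238 with no block. The count of the 38 genes was 3 (Atf3, Atf5 and Trib3) with no block for the experiment, 6 with 75th percentile scaling, where Asns, Cars and Eif2ak3 did not pass, and 0 with no filter, where no probe of the array passed.

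**Figure D1:**
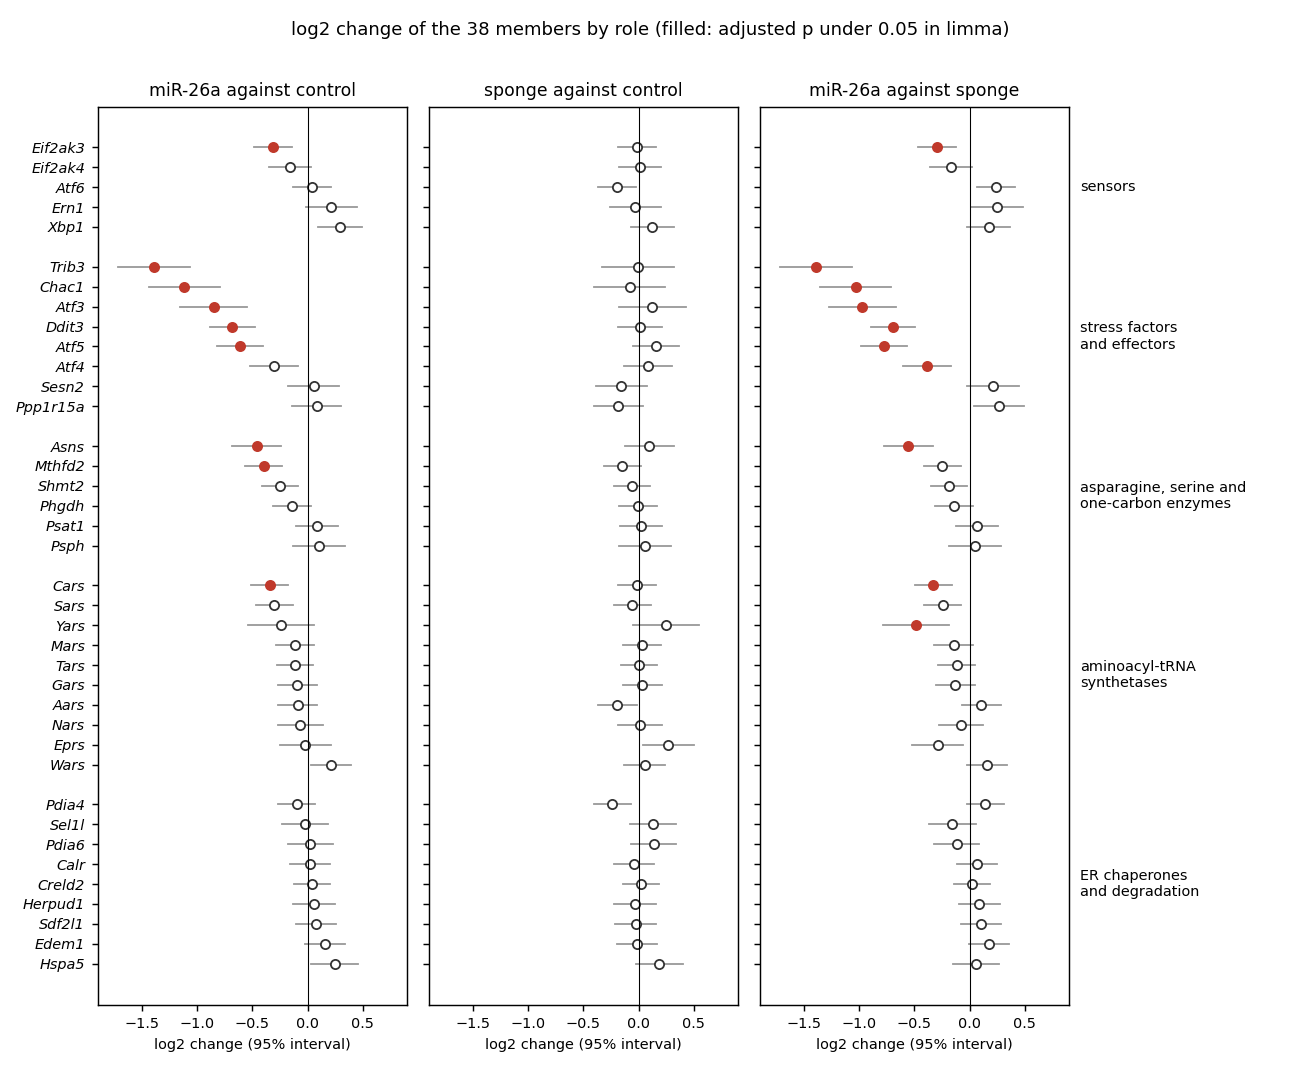
log2 change (x axis) of each of the 38 genes (y axis, grouped by role) in 3 comparisons, with 95% intervals from limma; filled points have an adjusted p under 0.05. The filled points of the miR-26a comparisons lie left of 0, down to -1.40 for Trib3, and the sponge comparison has no filled point.

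Among the sensors, Eif2ak3 encodes the ER-resident eIF2 kinase PERK. Its signal was 11.48 and 11.66 in control, 11.20 and 11.31 with miR-26a, and 11.45 and 11.65 with the sponge. Both miR-26a arrays were below all 4 others, and Eif2ak3 fell by 0.31 against control (95% interval -0.49 to -0.14, adjusted p = 0.0481). The Eif2ak3 call was lost with no block, with 75th percentile scaling and with a filter of signal above 50 on 2 arrays. Eif2ak4 encodes GCN2, the kinase that senses uncharged tRNA. It gave 10.86 and 10.88, then 10.74 and 10.68, then 10.96 and 10.80, with the miR-26a arrays lowest but a change of -0.16 that did not pass (adjusted p = 0.248; -0.23 without control 1 and -0.09 without control 2). Its 2 dimmer probes gave 0.12 and 0.25, also not past the threshold, so the probes differ in sign.

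Ern1, the gene of the ER-bound kinase and nuclease IRE1, stood at 6.72 and 6.79, then 7.07 and 6.88, then 6.84 and 6.62, from the only 1 of its 4 probes above background. These were highest with miR-26a, by a margin near that between replicates (change 0.22, adjusted p = 0.213; 0.08 without control 1 and 0.35 without control 2). Atf6, the ER-bound precursor of a transcription factor, was at 8.96 and 9.11, then 9.01 and 9.14, then 8.72 and 8.96, so that control and miR-26a overlapped (change 0.04, adjusted p = 0.76). Xbp1, whose transcript IRE1 splices, was at 12.15 and 11.98, then 12.49 and 12.23, then 12.38 and 12.0004. Both miR-26a arrays were above both controls, and the change of 0.30 did not pass (adjusted p = 0.078); it did with normexp background correction (adjusted p = 0.0416, with a range of 0.0416 to 0.437 over the alternatives). The probe does not separate spliced from unspliced Xbp1 transcripts, and neither phosphorylation nor translation was measured.

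Trib3 had the largest change among the 38 genes. It encodes a pseudokinase that is induced by ATF4 and CHOP and restrains both ATF4 and AKT. The signal of its probe (mm9 chr2:152163161-152163220) was 9.73 and 9.91 in control, 8.21 and 8.64 with miR-26a, and 9.87 and 9.77 with the sponge. The miR-26a arrays stood more than 1 unit below the 4 others, which lay close together. Trib3 fell by 1.40 against control (SE 0.13, 95% interval -1.72 to -1.07, 2.63-fold lower, adjusted p = 0.00698), by 1.52 in experiment 1 and by 1.27 in experiment 2.

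Chac1, an enzyme that breaks down glutathione and a target of ATF4, was read by a probe at mm9 chr2:119179990-119180049. It gave 11.79 and 12.45 in control, 10.42 and 11.59 with miR-26a, and 11.55 and 12.53 with the sponge. Here the 2 experiments stood apart in every group, by 0.65 in control, 1.17 with miR-26a and 0.99 with the sponge, and miR-26a 2 was just above sponge 1. Within each experiment the miR-26a array was lowest. The fall was 2.17-fold (log2 change -1.12, 95% interval -1.44 to -0.79, adjusted p = 0.0105). Replicate number coincides with the column of the slide, so an effect of the experiment and one of the position cannot be told apart, and the block covers both.

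Ddit3 encodes CHOP. Its signal was 9.61 and 10.04, then 8.86 and 9.42, then 9.51 and 10.16. It shared the step between experiments (0.43 in control, 0.56 with miR-26a, 0.65 with the sponge), and the miR-26a arrays were still below all 4 others. The fall was 1.60-fold (log2 change -0.68, 95% interval -0.88 to -0.48, adjusted p = 0.0107). Mars, which encodes the methionyl-tRNA synthetase, has its probe at mm9 chr10:126733940-126733999 on the other strand, close to the Ddit3 probe (mm9 chr10:126732518-126732821). Its change was -0.11 (adjusted p = 0.361), so the neighbouring genes differed in call.

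Atf3, a stress-induced repressor of transcription, was at 6.18 and 6.38, then 5.39 and 5.48, then 6.54 and 6.27. The 2 miR-26a arrays agreed closely and lay below all others. Atf3 was 1.80-fold lower with miR-26a (log2 change -0.85, 95% interval -1.15 to -0.54, adjusted p = 0.0173), and its log2 change was -0.39 with normexp background correction. Its processed signal was under the limit of 50 on the miR-26a arrays (41.3 and 43.4) and above it on the 4 others (72.1 to 86.5), so Atf3 passed the filter through the groups where it is high. Atf5, a relative of ATF4 that is controlled in translation by the same eIF2 kinases, was at 12.21 and 12.30, then 11.70 and 11.58, then 12.37 and 12.46. The groups did not overlap, and Atf5 was 1.53-fold lower (log2 change -0.61, 95% interval -0.82 to -0.41, adjusted p = 0.0152).

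Atf4 itself was read by 2 probes that passed the filter, and they differed in call. The brighter (mm9 chr15:80087902-80087961) gave 15.97 and 16.15, then 15.64 and 15.88, then 16.16 and 16.14. Signal was lowest with miR-26a, and the change of -0.30 against control missed the threshold (adjusted p = 0.0919). The dimmer (mm9 chr15:80086639-80086698) gave 11.51 and 11.63, then 10.96 and 11.15, then 11.11 and 11.34. It was highest in control, and fell by 0.51 with miR-26a (adjusted p = 0.015). With the sponge this probe had a change of -0.34 (adjusted p = 0.22) and the brighter one 0.09 (adjusted p = 0.644). With the probes of a gene averaged, Atf4 was among the genes called lower with miR-26a. The brighter probe alone was also called lower with normexp background correction (change -0.33, adjusted p = 0.0498 by limma).

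The remaining 2 effectors had no fall. Ppp1r15a, which encodes the phosphatase subunit GADD34 that reverses eIF2 phosphorylation, had a change of 0.08 (adjusted p = 0.622), and Sesn2, a leucine-binding inhibitor of mTORC1, had one of 0.05 (adjusted p = 0.772). Over the 8 stress factors and effectors the median change was -0.65, and -0.61 without Atf3.

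**Figure D2:**
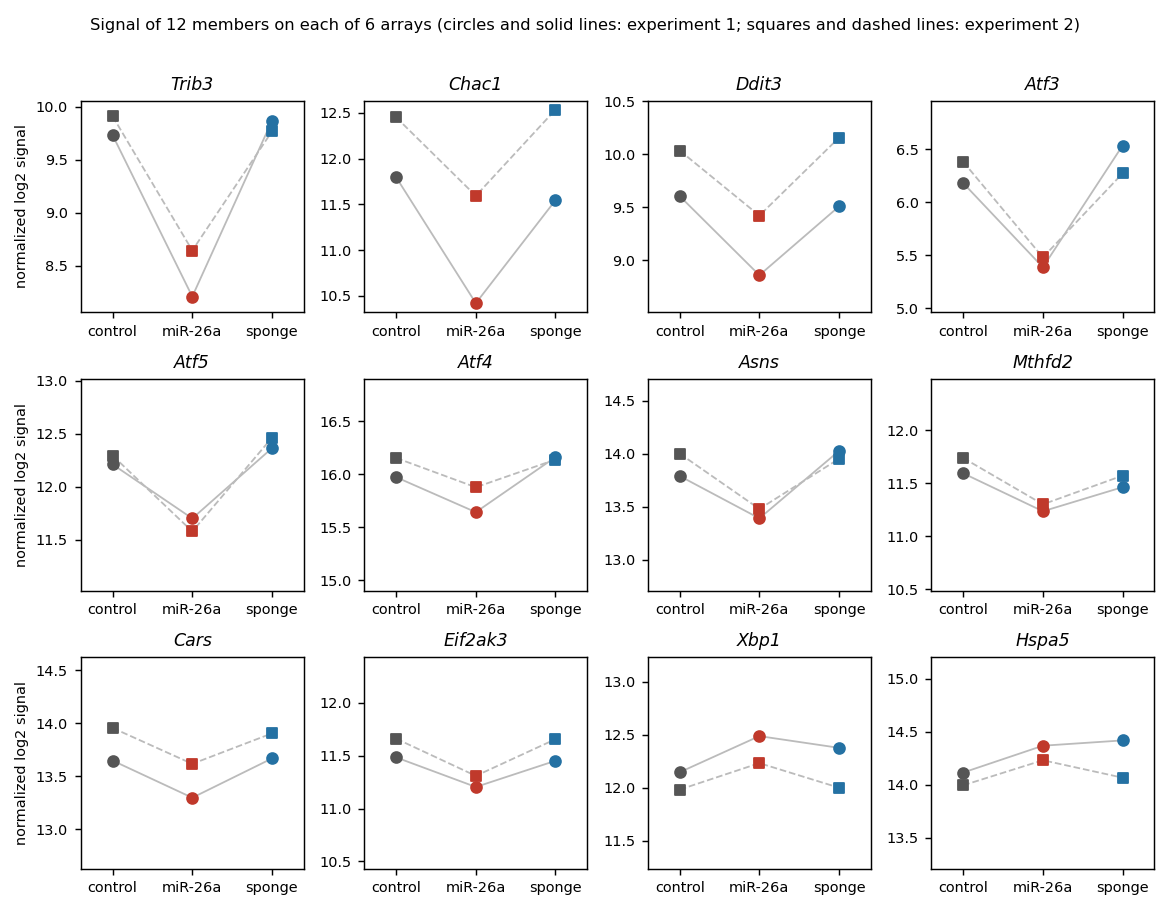
Normalized log2 signal (y axis) of 12 genes on each array by group (x axis); circles and solid lines are experiment 1, squares and dashed lines experiment 2. For Trib3 the miR-26a arrays lie at 8.21 and 8.64 and the 4 others between 9.73 and 9.91, whereas Hspa5 is between 13.99 and 14.42 on all arrays.

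Of the enzymes of amino acid supply, Asns makes asparagine from aspartate and is a classical reporter of the ATF4 response. It gave 13.79 and 14.00, then 13.39 and 13.48, then 14.03 and 13.95. Both miR-26a arrays lay below the rest, and the fall was 1.38-fold (log2 change -0.46, 95% interval -0.68 to -0.24, adjusted p = 0.0359). The Asns call was lost with no block and with 75th percentile scaling. Mthfd2, a mitochondrial enzyme of the folate cycle, was at 11.59 and 11.74, then 11.23 and 11.30, then 11.46 and 11.57. Signal was again lowest with miR-26a, with the sponge arrays between them and the controls (log2 change -0.40, 95% interval -0.57 to -0.23, adjusted p = 0.0259). The Mthfd2 call was lost with no block. Shmt2, which feeds serine carbon into that cycle, had a change of -0.25 that did not pass (adjusted p = 0.0774). The serine synthesis enzymes did not pass either, with changes of -0.14 for Phgdh, 0.09 for Psat1 and 0.10 for Psph. The second probes of Phgdh, Psat1 and Psph gave no call.

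Among the 10 cytosolic tRNA synthetases, 9 had negative changes and 1 passed. Of all probes 52.7% had positive changes and 5.14% were called lower, so among 10 genes a count of 1 is near that share. The 10 other cytosolic synthetases, described below, had 5 negative and 5 positive changes. Cars, which charges cysteine, gave 13.65 and 13.96, then 13.30 and 13.62, then 13.67 and 13.91. The experiments stood about 0.3 apart, miR-26a 2 lay just below control 1, and the miR-26a array was lowest in both experiments (log2 change -0.34, 95% interval -0.51 to -0.18, adjusted p = 0.0375). The Cars call was lost with no block and with 75th percentile scaling. Sars, for serine, was next with -0.30 (adjusted p = 0.0514). The 8 others had changes between -0.24 (Yars) and 0.21 (Wars), and the median of the 10 was -0.10.

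The ER chaperones and degradation factors are the usual targets of ATF6 and spliced XBP1. With miR-26a, 0 of 9 were called by limma in either direction (0 lower and 1 higher at an unadjusted p under 0.05). Of all probes 9.64% were called in either direction, so among 9 genes a count of 0 is near that share. Hspa5 encodes BiP, the main chaperone of the ER lumen. It was at 14.11 and 13.99, then 14.37 and 14.23, then 14.42 and 14.06. Both controls were below the miR-26a arrays, and the sponge arrays lay on either side of miR-26a 2 (change 0.24, 95% interval 0.03 to 0.46, adjusted p = 0.139). The other changes ran from -0.10 (Pdia4) to 0.16 (Edem1), and the median of the 9 was 0.04. Creld2, an early marker of ER stress, was between 13.20 and 13.26 on all 6 arrays. Its interval of -0.12 to 0.20 leaves out a change of the size seen for Ddit3. Herpud1 (change 0.06), Calr (0.02), Sdf2l1 (0.07), Sel1l (-0.03) and Pdia6 (0.02) were likewise not called. A dimmer probe of Pdia6 gave -0.24, of opposite sign and not called.

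**Figure D3:**
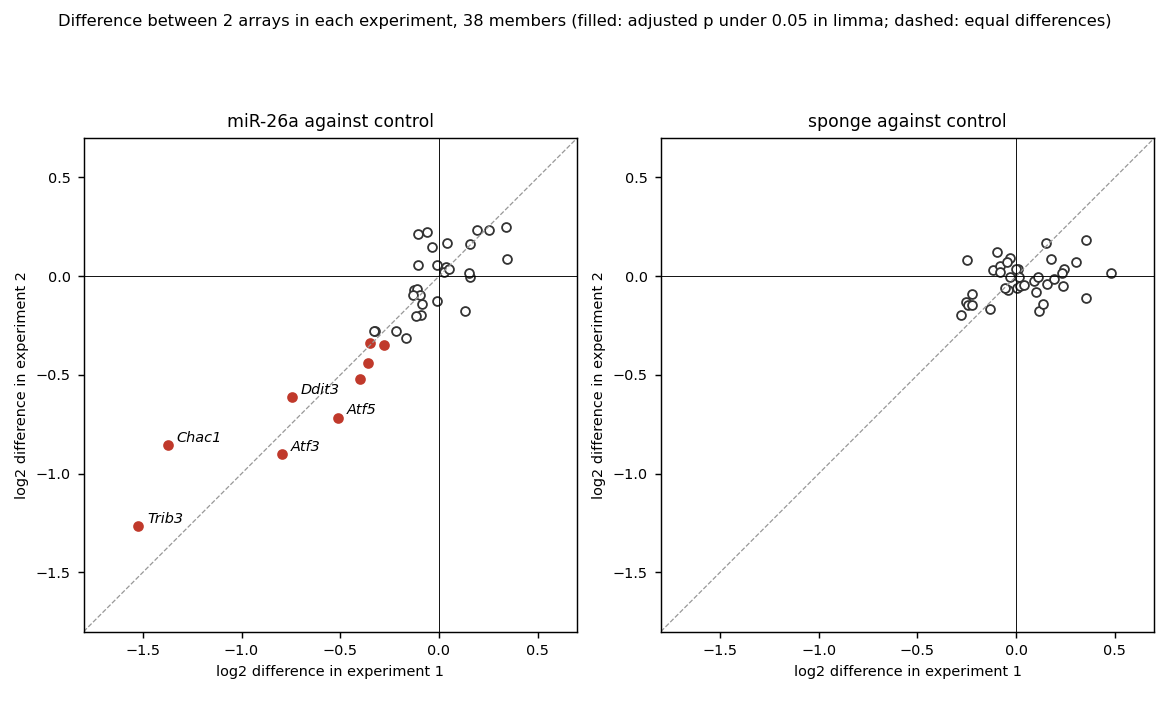
Difference in log2 signal between 2 arrays of experiment 1 (x axis) and of experiment 2 (y axis) for the 38 genes; filled points have an adjusted p under 0.05 and the dashed line marks equal differences. With miR-26a the filled points lie in the lower left, as for Trib3 at -1.52 and -1.27, and with the sponge no point is filled.

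With the sponge, none of the 38 genes was called by limma against control, and among all probes 0% were called lower and 0.00992% higher. At an unadjusted p under 0.05 there were 3 lower and 1 higher among the 38, beside 1759 lower and 1488 higher among all 20168 probes. The median log2 change was 0.01, beside 0.00 for all probes, and the changes ran from -0.24 for Pdia4 to 0.27 for Eprs. The genes lowered by miR-26a had changes of -0.0042 for Trib3 (95% interval -0.33 to 0.32), -0.08 for Chac1, 0.01 for Ddit3 (95% interval -0.19 to 0.21), 0.12 for Atf3, 0.16 for Atf5, 0.09 for Asns, -0.15 for Mthfd2, -0.02 for Cars and -0.02 for Eif2ak3. The sponge and miR-26a comparisons share the 2 control arrays.

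In the direct comparison of miR-26a with sponge cells the control arrays do not enter the differences, but they enter the spread that the test uses. It called 10 of the 38 genes (26.3%) lower, against 8.49% of all probes, and none higher, against 8.28% of all probes (14 lower and 3 higher at an unadjusted p under 0.05, beside 3201 lower and 3769 higher of all probes). The median was -0.12, beside 0.02 over all probes. As above, the genes were chosen with earlier results of these data known, and these shares are no test of the set. The largest differences were those of Trib3 (-1.39, 95% interval -1.72 to -1.06, adjusted p = 0.00443), Chac1 (-1.03, adjusted p = 0.00918) and Atf3 (-0.97, adjusted p = 0.0093, and -0.46 with normexp background correction). Atf3 passed the filter only through the groups where it is high, and without it 9 of 37 genes were lower. Atf5 (-0.77, adjusted p = 0.00624), Ddit3 (-0.69, adjusted p = 0.00753) and Asns (-0.56, adjusted p = 0.0165) followed. Smaller ones were found for Cars (-0.33, adjusted p = 0.0308), Atf4 (-0.39, adjusted p = 0.0372) and Eif2ak3 (-0.30, adjusted p = 0.0411). These calls depended on the processing. Chac1, Ddit3, Cars, Atf4 and Eif2ak3 did not pass with no block, Atf4 and Eif2ak3 did not with array weights, and Atf4 did not with 75th percentile scaling. The dimmer Atf4 probe gave -0.17 and no call (adjusted p = 0.142).

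Yars, the tyrosyl-tRNA synthetase, was called in this comparison alone. It was at 7.22 and 7.38, then 7.05 and 7.07, then 7.70 and 7.39. Signal was lowest with miR-26a, and sponge 1 stood above the rest (difference from the sponge -0.49, adjusted p = 0.0475, and from control -0.24, adjusted p = 0.27). The call was kept in 5 of 15 alternatives and lost without any 1 array, with a difference from the sponge of -0.29 without sponge 1 and -0.69 without sponge 2, and from control of -0.39 without control 1 and -0.09 without control 2. Mthfd2 had a difference of -0.25 that did not pass (adjusted p = 0.0595). The 9 ER chaperones and degradation factors again gave 0 calls by limma, beside 16.8% of all probes called in either direction. They had 0 at an unadjusted p under 0.05 in either direction and differences from -0.16 (Sel1l) to 0.18 (Edem1). Without sponge 1 the count of lower genes was 1 (Trib3), without sponge 2 it was 2 (Trib3 and Atf3), and without miR-26a 1, control 1 or control 2 it was 6. The lower calls over all probes dropped from 1712 to 292 without sponge 1, 285 without sponge 2, 1326 without miR-26a 1 and 1104 without either control array. Among the 38 genes the count was 4 with no block (Asns, Atf3, Atf5 and Trib3), where 632 of all probes were lower, and 0 with no filter, where no probe passed; it was 9 of 37 without Atf3.

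Promoters are shown for some of the members called lower and, for comparison, of ER chaperones. RefSeq promoters of 300 bases, 250 before and 50 after the start (GRCm38.p6), were found for 34 of the 38 genes, 37 of which were matched by symbol and 1 by synonym; Atf6, Cars, Nars and Wars had none in the table. The composite element bound by ATF4 with a C/EBP partner was searched as TGATGNAA on both strands. It was in 9 of the 34 promoters and in 4.51% of 27025 genes with a promoter. Of the 8 genes lowered by miR-26a with a promoter, 4 held it (Asns, Atf3, Chac1 and Trib3), and of the 26 others 5 did (Aars, Gars, Herpud1, Tars and Yars). Atf3 stands in both counts of lowered genes although it passed the filter only through the groups where it is high. Capitals mark the match, on the strand of the gene, in 30 bases around it.
Asns, 23 to 16 bases before the start, chr6:7693214-7693243, minus strand: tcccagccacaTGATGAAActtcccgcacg
Atf3, 110 to 103 bases before the start, chr1:191183425-191183454, minus strand: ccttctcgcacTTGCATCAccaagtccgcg
Chac1, 193 to 186 bases before the start, chr2:119351038-119351067, plus strand: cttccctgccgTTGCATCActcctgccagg
The Trib3 match lies after the start. A match describes the letters of a promoter and is not a shown binding site.

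The ER stress element, CCAAT and CCACG with 9 bases between them, was in 4 of the 34 promoters and in 0.137% of all. The 4 were Calr, Creld2, Hspa5 and Pdia6, all chaperone or folding genes without a call, and none was a gene lowered by miR-26a.
Hspa5, 65 to 47 bases before the start, chr2:34772020-34772048, plus strand: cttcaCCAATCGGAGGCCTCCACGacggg
Pdia6, 98 to 80 bases before the start, chr12:17266486-17266514, plus strand: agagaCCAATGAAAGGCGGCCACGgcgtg
The core of the unfolded protein response element, TGACGTG, was in 2 of the 34 (Eprs and Hspa5) and in 2.22% of all.

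Of 106 other genes of the pathway, in 7 lists, 96 were tested. These lists were also chosen with earlier results of these data known. With miR-26a 9 of the 96 (9.38%) were lower and 6 (6.25%) higher, beside 5.14% and 4.5% of all probes. Almost all of these calls were lost without control 1 or control 2, as were most of the lower calls over all probes. Fewer of the 96 genes were also called in each direction without any of the 4 other arrays. Among the amino acid transporters 3 of 11 tested fell and none rose. Slc7a3, a carrier of cationic amino acids, was at 6.87 and 7.29, then 5.04 and 5.35, then 7.19 and 7.33. With miR-26a both arrays were below the rest (change -1.89, SE 0.09, adjusted p = 0.00239). Their processed signals of 32.3 and 39.2 were under the limit of 50, and those of the 4 others were 116 to 175, so Slc7a3 passed the filter only through the groups where it is high. Without it, 2 of 10 transporters and 8 of 95 genes in all were lower. The glycine carrier Slc6a9 (-0.92, adjusted p = 0.00912) and the cationic carrier Slc7a1 (-0.36, adjusted p = 0.0323) also fell. The median was -0.23 over the 11 and -0.18 without Slc7a3, and Slc7a11, the cystine carrier, was not well above background on any array.

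Of 8 tested targets and partners of ATF4 and CHOP, 2 fell and 2 rose, beside 5.14% and 4.5% of all probes. Nupr1, a small stress-induced nuclear protein, was at 6.67 and 6.81, then 5.78 and 6.15, then 7.05 and 7.07. The miR-26a arrays were lowest (change -0.78, adjusted p = 0.0131). The pro-apoptotic gene Bbc3 had a change of -0.61 (adjusted p = 0.012). Nfil3, a bZIP repressor, rose by 0.58 (adjusted p = 0.0252), and Ero1l, an ER oxidase, by 0.50 (adjusted p = 0.0204). The list was therefore split in direction, and its median was -0.26. Of the other amino acid and one-carbon enzymes, Gpt2, an alanine aminotransferase, fell (-0.47, adjusted p = 0.0316).

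None of 10 other cytosolic tRNA synthetases was called by limma with miR-26a (2 lower and 1 higher at an unadjusted p under 0.05), and their median was 0.01. Beside the calls of this list and those below stand the shares of all probes, 5.14% lower and 4.5% higher. Of 16 mitochondrial synthetases tested, Tars2 fell (-0.40, adjusted p = 0.026), while Wars2 (0.67, adjusted p = 0.0114) and Mars2 (0.33, adjusted p = 0.0412) rose, with a median of 0.14. The 14 genes of eIF2, its exchange factor eIF2B and their regulators gave 0 calls by limma (1 lower and 1 higher at an unadjusted p under 0.05) and a median of 0.05. Among 27 other ER genes, 2 fell (7.41%) and 1 rose (3.7%), which is near the shares of all probes. Ero1lb, an ER oxidase related to Ero1l, was at 10.52 and 10.77, then 9.48 and 9.56, then 10.56 and 10.96. There was no overlap between miR-26a and the rest, and Ero1lb had a change of -1.13 (adjusted p = 0.00571) where Ero1l rose. Sdf2 fell (-0.52, adjusted p = 0.0163), and Hyou1, an ER chaperone, rose by 0.36 (adjusted p = 0.0417). The median of the 27 was -0.02.

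**Figure D4:**
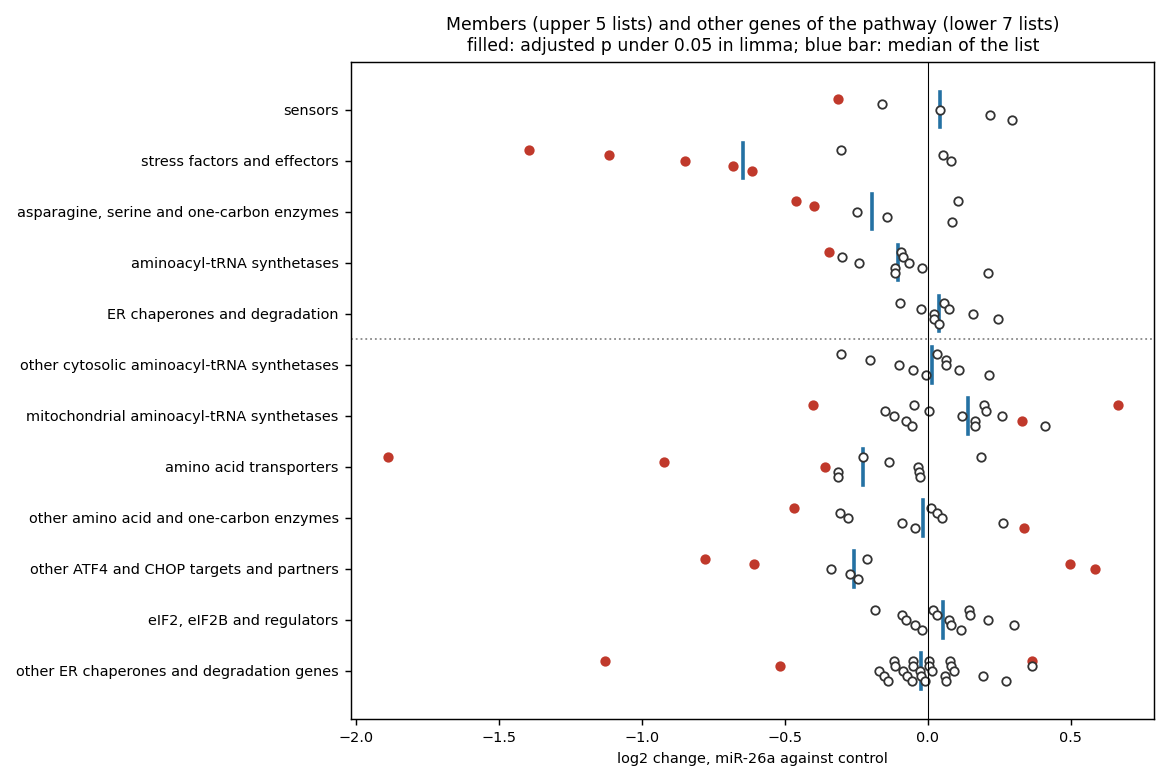
log2 change with miR-26a against control (x axis) of the 38 genes in 5 lists and of 96 other genes in 7 lists (y axis); each point is a gene, filled at an adjusted p under 0.05, and the bar is the median of the list. The stress factors have a median of -0.65 and the ER chaperones of 0.04, and Slc7a3 lies farthest left at -1.89.

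Against control, the sponge gave no call in any of the 7 lists by limma, with 5 genes lower and 12 higher at an unadjusted p under 0.05 among the 96, beside 1759 lower and 1488 higher of all 20168 probes. In the test of miR-26a against sponge cells, 13 of the 96 (13.5%) were lower and 10 (10.4%) higher, beside 8.49% and 8.28% of all probes. The share of higher genes was therefore near that of all probes. Most of these calls were lost without sponge 1 or sponge 2, as were most of the lower calls over all probes. Without any of the 4 other arrays the count of higher genes dropped too, and that of lower genes did not rise. Without Slc7a3 (-2.06, adjusted p = 0.00139), 12 of 95 were lower, among them 4 of 10 transporters. These included Slc6a9 at -1.04 (adjusted p = 0.00471) and the glutamine carrier Slc38a1 at -0.50 (adjusted p = 0.0136). Lars, the leucyl-tRNA synthetase, was at -0.44 (adjusted p = 0.0158). Higher genes included Wars2 at 0.67 (adjusted p = 0.00851) and Eif2b5, a subunit of eIF2B, at 0.45 (adjusted p = 0.0134).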

How the data were processed

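For each array the authors deposited Agilent Feature Extraction output (version 10.7.1.1) with a processed intensity for each spot, corrected for background by the scanner software, and their own quantile-normalized intensities on a linear scale. Groups and replicate numbers were taken from the labels. Quantile normalization was applied to the processed signals of non-control spots, and log2 values were averaged over a probe's unflagged spots. A probe was tested if at least 1 array had it well above background and at least 4 arrays had a signal above 50 (20168 of 55681). All 6 arrays were fitted in limma 3.58.1 (R 4.3.3) with group and experiment as terms, with empirical Bayes moderation and Benjamini-Hochberg adjustment over all tested probes. The titles of the control samples quote other accessions, so that pairing arrays by number rests on the methods. Deviations from the group mean correlated across probes between arrays with 1 number (0.588 between sponge and control, 0.454 between sponge and miR-26a, 0.379 between miR-26a and control). Tables and plots were made with pandas 2.3.3, numpy 2.4.6 and matplotlib 3.10.9.

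Genes given with the value of every array are those of the 38 called in any comparison and 12 regulators and classical targets, called or not; from each other list the called genes with the largest rise and fall are given, and further genes were named after their values were seen. Some genes that this rule covers are not reported here. The members and lists were chosen with earlier results of these data known. Lat was added as a check of the genotype after the data were seen. Alternatives were no block, 75th percentile scaling, normexp correction with an offset of 50, the authors' values, 3 other filters, averaging the probes of a gene, array weights and leaving out each array, which for the other pathway genes was added after the data were seen.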

Additional observations from a re-analysis of the deposited data

How the results depend on the processing

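The 19 called changes of single genes kept their direction in all 283 values under 15 alternatives and kept the call in 180 of them. Leaving out arrays, which leaves a group with 1 array that is assumed to vary like the others, gave 0 to 6 of the 38 genes lower with miR-26a against control and 1 to 7 against the sponge; among the 96 other genes, a check added after the data were seen, it gave 1 to 8 lower and 0 to 3 higher against control and 4 to 13 lower and 0 to 5 higher against the sponge. With no replicate block the counts lower were 3 and 4, and with no filter 0 and 0, where 0 of 55681 probes passed. Normexp correction gave 1 gene higher with miR-26a, Xbp1. The median change with miR-26a against control was -0.0752 with 75th percentile scaling, -0.0960 with normexp, -0.0862 with the authors' values and -0.111 to -0.0702 without 1 array. With the sponge it was 0.0634 with 75th percentile scaling, -0.00989 with the probes of a gene averaged and -0.0192 to 0.0180 without 1 array. For miR-26a against sponge it was -0.161, -0.0983 and -0.134 to -0.0872 in the same order. Changes that were not called turned in sign and moved by at least their standard error for Eif2ak4 with miR-26a (0.0710) and Atf4 with the sponge (-0.126), both with probes averaged, and for Cars with the sponge under 75th percentile scaling (0.0655). Without 1 array this also occurred, and changes with the sponge ran from -0.166 to 0.110 for Ern1, -0.0284 to 0.203 for Atf4, -0.0819 to 0.328 for Atf3, -0.0754 to 0.1001 for Ddit3, -0.207 to 0.199 for Trib3, -0.296 to 0.130 for Chac1 and -0.0179 to 0.206 for Asns, and Hspa5 ran from -0.0543 to 0.169 for miR-26a against sponge. Other sign turns moved by less than the standard error. The causes were not tested. Signal over background limits what can be said of Atf3 and Slc7a3, whose signals were under the limit of 50 with miR-26a.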

Other observations

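Of the 106 other pathway genes, 10 were not tested because their signal was too low. Slc7a11, Fgf21, Jdp2 and Aldh1l2 were not well above background on any array. Stc2, a secreted stress protein, was well above background on 6 arrays but under the signal limit, at log2 signals of 5.24 and 5.10 in control, 5.43 and 4.94 with miR-26a, and 5.70 and 5.33 with the sponge. The miR-26a arrays overlapped both other groups, and both sponge arrays were above both controls, with no test. Cebpb, a partner of ATF4 and CHOP, was well above background on 5 arrays, at 3.85 and 3.69, then 4.43 and 5.64, then 4.22 and 3.74, with both miR-26a arrays highest and no test.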
